A study of Mus musculus with 14 samples.

Results

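The heat shock proteins described here are 10 chaperone genes, Hspa1a, Hspa1b, Hspa8, Hsph1, Hspd1, Hspe1, Hsp90aa1, Hspb1, Dnaja1 and Dnajb1, taken by their symbols from the 24421 genes of the count table. All 10 carried enough reads to be tested, as did 14854 genes in all. They were measured by sequencing of messenger RNA from whole kidneys of male C57BL/6J mice, whose age is not given in the labels. The groups were 2 libraries taken 24 h after MnDps, 3 taken 24 h after Dps, 3 taken 4 h after MnDps, 3 taken 4 h after Dps and 3 of vehicle controls, for which the labels give no time point. Dps and MnDps, which the series title places among protein nanocages meant to pass the glomerular filter and reach proximal tubules, were each injected into a vein at 18 mg/kg. The labels do not spell out the names Dps and MnDps, and do not say how the materials differ. Whether each library is a kidney of its own animal is not stated either, and the p-values then describe only how far these 14 libraries scatter, which may be technical.

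Heat shock proteins are chaperones that hold, fold, refold or help to destroy other proteins. Hsp70 proteins bind and release unfolded stretches in a cycle driven by ATP. J domain proteins deliver clients to Hsp70 and start that cycle, nucleotide exchange factors end it, and Hsp90 takes over clients at a later step. When unfolded proteins build up, heat shock factor 1 binds repeated GAA and TTC units in the promoters of these genes, and the inducible genes respond within hours to heat, lack of oxygen, toxins and handling of tissue. In kidney the inducible Hsp70 and Hspb1 are known for high levels in the inner medulla, where salt and urea are concentrated, and for their response to ischaemia of the tubules. Hsp60 and Hsp10, the products of Hspd1 and Hspe1, form the folding chamber of mitochondria.

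The promoter stretches below are shown because the members are known as targets of heat shock factors and because most of them varied together between libraries. The sequences are from RefSeq on the GRCm38.p6 build, which has the coordinates of mm10, the build named by the submitters. Capitals mark every match to TTCNNGAA or GAANNTTC, which are pairs of the unit bound by heat shock factors, each read the same on both strands, and the 2 motifs can overlap. For Hspa1a, Hspa1b and Hspb1 the 250 bases before the gene start hold no annotated exon and are given in full, and for the others a 30-base site is given.
Hspa1a (chr17:34972157-34972406, minus strand): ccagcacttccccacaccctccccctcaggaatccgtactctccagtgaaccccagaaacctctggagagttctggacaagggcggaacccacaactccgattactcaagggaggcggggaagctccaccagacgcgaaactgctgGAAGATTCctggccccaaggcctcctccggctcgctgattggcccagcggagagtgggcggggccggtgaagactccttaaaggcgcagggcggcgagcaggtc
Hspa1b (chr17:34959239-34959488, minus strand): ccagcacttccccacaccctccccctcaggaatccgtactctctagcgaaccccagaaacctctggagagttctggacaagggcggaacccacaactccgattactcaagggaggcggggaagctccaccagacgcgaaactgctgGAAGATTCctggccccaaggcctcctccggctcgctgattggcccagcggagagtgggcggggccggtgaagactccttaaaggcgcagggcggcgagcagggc
Hspb1 (chr5:135887669-135887918, plus strand): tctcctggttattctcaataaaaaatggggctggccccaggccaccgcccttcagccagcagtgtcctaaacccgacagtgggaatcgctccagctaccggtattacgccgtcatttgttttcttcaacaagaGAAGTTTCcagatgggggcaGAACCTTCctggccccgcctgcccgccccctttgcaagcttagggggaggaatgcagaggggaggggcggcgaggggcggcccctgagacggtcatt
Hsph1 (chr5:149636351-149636380, minus strand): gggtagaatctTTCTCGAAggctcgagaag
Dnaja1 (chr4:40722333-40722362, plus strand): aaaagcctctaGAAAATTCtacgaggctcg
Hspe1 (chr1:55088053-55088082, plus strand): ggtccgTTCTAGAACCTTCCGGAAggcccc
The windows of Hspa1a and Hspa1b differed at 3 of 250 bases, and in both a match began 104 bases before the start. The site printed for Hspe1 lies between its start at position 55088148 and an Hspd1 start at position 55087932, 215 bases away on the opposite strand. A second Hspd1 start is annotated at position 55088243, so the site lies inside the Hspd1 gene as annotated, and the window before that outer start holds no match. It holds 3 overlapping matches, which also make up 2 matches to a longer motif of 3 units in a row (GAA, TTC and GAA with any 2 bases between them, on either strand). Entries were found for 8 members, not for Hspa8 or Hsp90aa1. A match to either short motif was present in at least 1 window of 7 of these 8 and in no window of Dnajb1. By window, 8 of 13 held one, while 12.8% of 32851 promoter windows of the same length held one. The longer motif was in 0.466% of these 32851. The windows of the members do not hold separate sites. Both Hsph1 windows hold the same site, and the matches of the Hspe1 window are also those of an Hspd1 window. Hspa1a and Hspa1b are near-identical copies. The counts of windows and of genes with a match are therefore not comparable with that share as independent cases. A match is a description of letters and not a measured binding site.

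Total counts ran from 15097093 to 42074942 per library. Of the marker lists used to check the tissue, the proximal tubule list (8 genes, Kap among them) summed to between 44420 and 70370 CPM in every library, where CPM is the read count scaled to a common library total, TMM factors included. Most of that sum is Kap, whose group means ran from 34700 CPM in Dps at 4 h to 51920 CPM in MnDps at 4 h. Levels below are CPM as mean ± SD over libraries, and log2 fold changes come from edgeR's quasi-likelihood test ± SE, with p-values adjusted over all 14854 genes by Benjamini and Hochberg's method and a threshold of 0.05. In whole kidney, fewer cells of a type and less RNA per cell cannot be told apart. Fold changes followed transcript length across genes in several comparisons (Spearman's rho −0.47 for MnDps at 4 h, −0.51 for Dps at 24 h, −0.34 for MnDps at 24 h and 0.17 for Dps at 4 h, each against control, over 14328 genes with a known length, which are not independent replicates). Each member that passed the test is therefore also given with the trend on length and GC content removed. After that correction rho with length was 0.06 for MnDps at 4 h and 0.02 for each 24 h group. For Dps at 4 h it was 0.13, so most of the small trend there remained, and the trend is called removed there only in part.

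Few members passed the test after either material, and a member that did not pass is not thereby shown to be unchanged. Against vehicle, no member passed after Dps at 4 h, Hspe1 was higher after MnDps at 4 h and after Dps at 24 h, and Hspd1 was lower after MnDps at 24 h. These are 0, 1, 1 and 1 of 10 members, beside 14.6% of all tested genes called after Dps at 4 h (8.33% higher and 6.27% lower), 45.6% after MnDps at 4 h (22.9% higher and 22.7% lower), 20.1% after Dps at 24 h (9.64% higher and 10.4% lower) and 13.3% after MnDps at 24 h (4.93% higher and 8.39% lower). With 10 members, a count of 0 or 1 is near these shares in all but MnDps at 4 h. The edgeR count of 0 after Dps at 4 h stands beside 2 members, Hspe1 and Dnaja1, with an unadjusted p under 0.05. DESeq2 and limma voom also called 0. In that comparison 2 members passed with the length and GC correction, Hspd1 and Hspe1, both lower. The correction left most of the length trend in place there (rho 0.13), so these values are not free of it. Dnaja1 passed there without control replicate 1 (−0.55). The median log2 fold change of the 10 members was −0.14 after Dps at 4 h, 0.01 after MnDps at 4 h, 0.33 after Dps at 24 h and −0.05 after MnDps at 24 h, while the median over all tested genes lay between −0.02 and 0.02 in all 4. The plot of change against vehicle shows each value with its error.

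**Figure D1:**
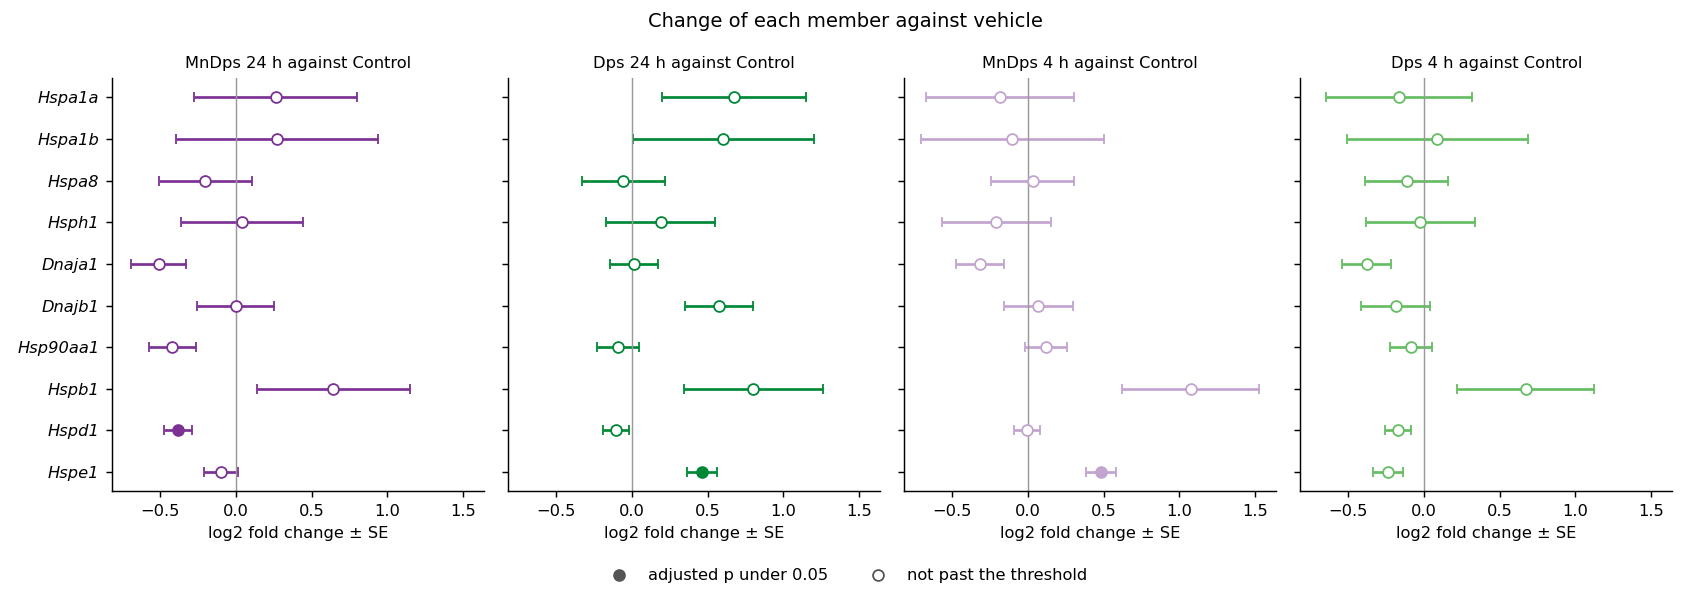
Log2 fold change ± SE (horizontal axis) of each of the 10 members (rows) against control in panels for both 24 h groups and then both 4 h groups, MnDps left of Dps; filled points passed an adjusted p under 0.05. Hspd1 at 24 h of MnDps (−0.38) and Hspe1 at 24 h of Dps (0.46) and at 4 h of MnDps (0.48) are filled, and the error bars of Hspa1a, Hspa1b and Hspb1 are the widest.

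Per length of the longest transcript, the constitutive Hsp70 gene Hspa8 stood highest in the controls at 673 ± 219 CPM per kb (SD, n = 3). Hspd1 followed at 331 ± 17.1, Hspe1 at 148 ± 19.0 and Hsp90aa1 at 117 ± 23.8 CPM per kb, and the ranges given by these SDs overlap only for the last pair. Dnaja1 (50.4 ± 11) and Hsph1 (41.0 ± 17.9 CPM per kb) came next and overlapped each other. Dnajb1 (15.8 ± 4.30), Hspb1 (12.3 ± 6.08), Hspa1b (9.62 ± 6.63) and Hspa1a (4.78 ± 2.57 CPM per kb) were lowest, and the mean ± SD range of each overlapped with that of the next. Reads from near-identical copies limit these levels. Of all 75-base stretches of the transcript, 61.7% in Hspa1a and 55.8% in Hspa1b also occur in transcripts of other genes, the other gene of this pair among them. The share was 53.1% for Hsp90aa1, 47.3% for Hspb1, 41.3% for Hspa8, 33.7% for Hspd1, 26.2% for Dnaja1 and 3.15% for Hspe1, and 0% for Hsph1 and Dnajb1. The handling of such reads in the counting is not given in the sources used here, and the level of each copy is therefore uncertain.

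Hspa1a and Hspa1b encode the stress-inducible Hsp70 and lie side by side on chromosome 17 (Hspa1b at chr17:34956429-34959238 and Hspa1a at chr17:34969359-34972156, both on the minus strand). Hspa1b had 29.4 and 35.3 CPM in MnDps at 24 h, 25.1, 25.3 and 71.7 in Dps at 24 h, 33.2, 18.1 and 23.8 in MnDps at 4 h, 25.3, 18.2 and 43.4 in Dps at 4 h, and 9.61, 46.6 and 24.7 CPM in the controls. The groups overlapped throughout, and the controls alone spanned a 4.85-fold range. The highest library was replicate 3 of Dps at 24 h and the lowest replicate 1 of the controls. Hspa1a had 39.5 CPM in the same replicate of Dps at 24 h and 6.26 CPM in the same control, and in all 5 groups its highest library was the one in which Hspa1b was highest. For Hspa1b the log2 fold change against control was 0.27 ± 0.67 in MnDps at 24 h, 0.60 ± 0.60 in Dps at 24 h, −0.10 ± 0.60 in MnDps at 4 h and 0.09 ± 0.60 in Dps at 4 h, with adjusted p between 0.508 and 0.945. For Hspa1a the corresponding values were 0.26, 0.68, −0.18 and −0.17, with adjusted p between 0.345 and 0.862. With the counts of the copies summed, no comparison passed.

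**Figure D2:**
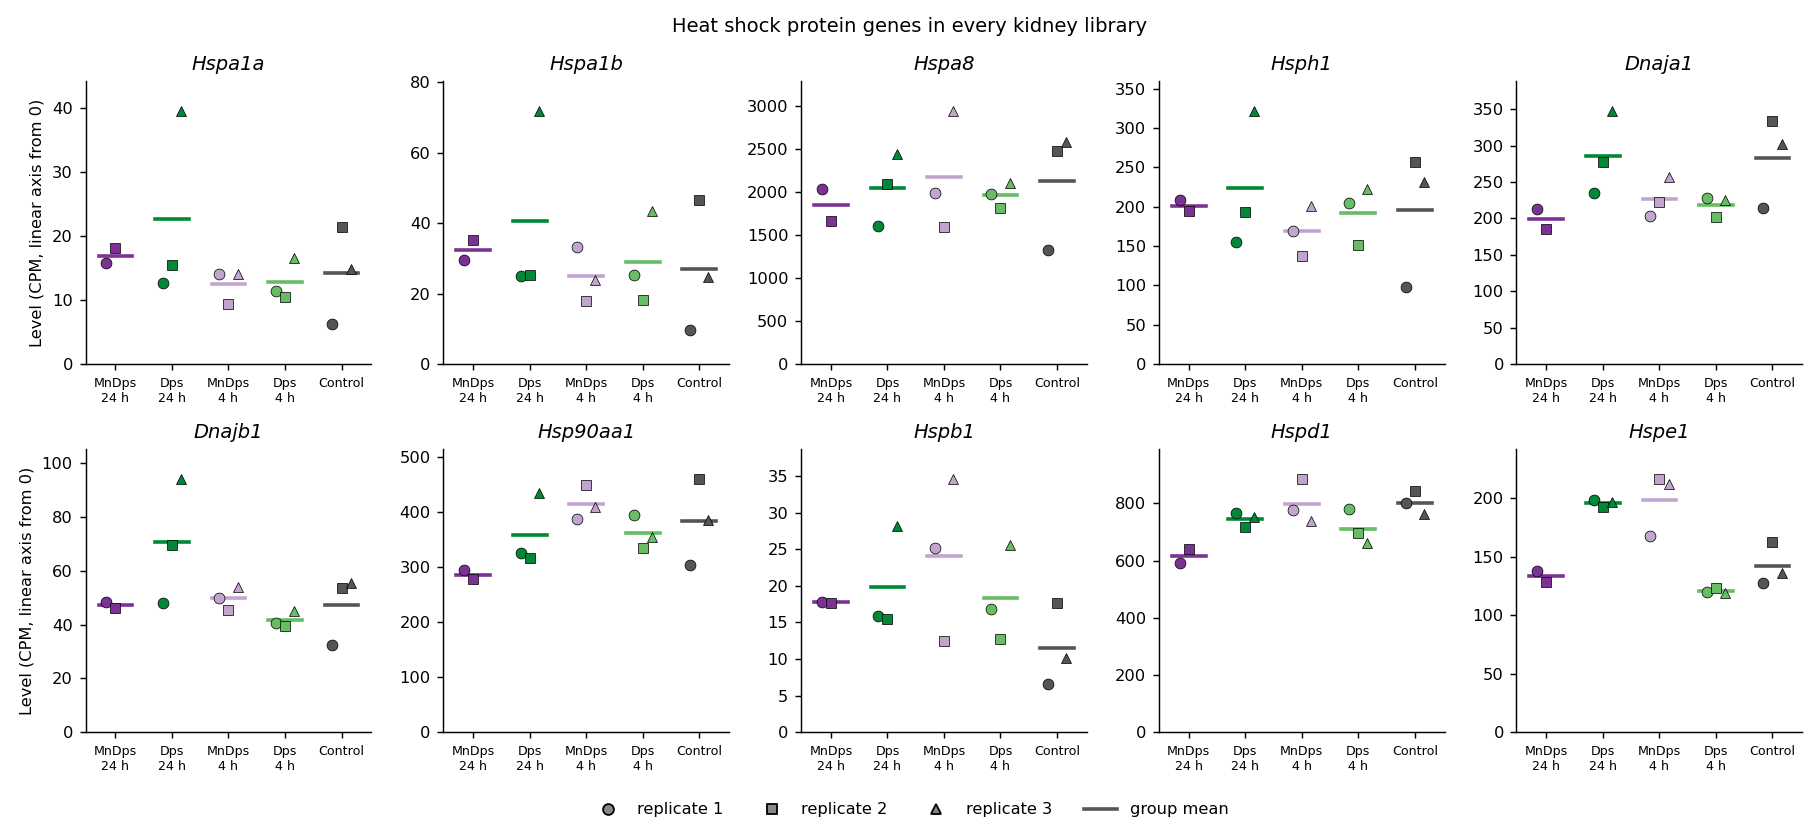
Level in CPM (vertical axes, linear and from 0, a scale for each gene) of the 10 members in each of the 14 libraries; point shapes give the replicate number, which does not pair libraries across groups, and bars the group mean. Replicate 1 of the controls is lowest of its group for 9 of the 10 members and replicate 3 of Dps at 24 h highest of its group for 8, while Hspe1 and Hspd1 lie close together within most groups.

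Hsph1, the Hsp110 protein that acts as a nucleotide exchange factor of Hsp70, followed the same libraries in part. Its highest library was that of Hspa1b in 3 of 5 groups, but not in either MnDps group. Its level was 208 and 194 CPM in MnDps at 24 h, 155, 194 and 321 in Dps at 24 h, 169, 138 and 201 in MnDps at 4 h, 205, 151 and 222 in Dps at 4 h, and 98.2, 257 and 231 CPM in the controls. The groups overlapped, and control replicate 1 was again the lowest of the 14 libraries. No comparison of Hsph1 passed, and its log2 fold change against control lay between −0.21 ± 0.36 (MnDps at 4 h) and 0.19 ± 0.36 (Dps at 24 h). Hspa8, the constitutive cytosolic Hsp70 that also strips clathrin coats from vesicles, averaged 1848 ± 256 CPM in MnDps at 24 h (n = 2), 2043 ± 421 in Dps at 24 h, 2172 ± 689 in MnDps at 4 h, 1964 ± 150 in Dps at 4 h and 2126 ± 692 CPM in the controls (n = 3 each). It did not pass in any comparison, and all groups overlapped with the controls.

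Dnaja1 and Dnajb1 encode J domain proteins that bring clients to cytosolic Hsp70, and Dnajb1 is the partner that rises with it under heat. Dnajb1 had 48.4 and 46.3 CPM in MnDps at 24 h, 48.0, 69.7 and 94.1 in Dps at 24 h, 49.7, 45.4 and 54.1 in MnDps at 4 h, 40.6, 39.5 and 45.0 in Dps at 4 h, and 32.4, 53.6 and 55.7 CPM in the controls. All libraries of Dps at 24 h stood above those of Dps at 4 h, and this was the comparison in which Dnajb1 rose (log2 fold change 0.76 ± 0.23, adjusted p = 0.0163). Dnajb1 and Hspe1 were the 2 of 10 members called there, both higher, while 44.6% of all tested genes were called (22% higher and 22.6% lower). Dnajb1 gave 0.80 with the length and GC trend removed (adjusted p = 0.0185). The call of Dnajb1 was lost without replicate 3 of Dps at 24 h (0.50), or without replicate 1 (0.73) or 2 (0.72) of Dps at 4 h, and with only these groups in the fit (adjusted p = 0.0563). Against control, Dps at 24 h gave 0.58 ± 0.23 (adjusted p = 0.091), which passed without replicate 1 of Dps at 24 h (0.79) and with DESeq2 (adjusted p = 0.0197). With the length and GC trend removed it did not pass (0.52, adjusted p = 0.179).

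Dnaja1 had 214 and 185 CPM in MnDps at 24 h, 235, 277 and 347 in Dps at 24 h, 203, 223 and 256 in MnDps at 4 h, 228, 202 and 225 in Dps at 4 h, and 214, 333 and 303 CPM in the controls. Both libraries of MnDps at 24 h lay below every library of Dps at 24 h and of the controls (213.5 against 214.1 CPM at the closest). None of these differences passed, with −0.51 ± 0.18 against control (adjusted p = 0.0791) and −0.52 ± 0.18 against Dps at 24 h (adjusted p = 0.175). Without control replicate 1, the lowest of its group for Dnaja1 as well, the fall against control passed in MnDps at 24 h (−0.68), MnDps at 4 h (−0.50) and Dps at 4 h (−0.55). Without replicate 3 of Dps at 24 h, which lies outside the comparison but shares its estimate of spread, MnDps at 24 h against control passed as well (−0.52), and so it did with DESeq2 (adjusted p = 0.0285). With the length and GC trend removed, Dnaja1 against control passed in none of these groups. It gave −0.25 in MnDps at 24 h (adjusted p = 0.536), 0.02 in MnDps at 4 h (adjusted p = 0.943) and −0.45 in Dps at 4 h (adjusted p = 0.132). Uncorrected, it gave −0.32 in MnDps at 4 h, beside a median of −0.26 in its length class. Dps at 24 h against Dps at 4 h gave 0.39 ± 0.16 (adjusted p = 0.0612), which passed without replicate 1 of Dps at 24 h (0.52), control replicate 1 (0.39) or control replicate 2 (0.39), and with the length and GC trend removed (0.68, adjusted p = 0.0216).

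Hsp90aa1 encodes the inducible cytosolic Hsp90, which matures kinases and steroid receptors. It had 295 and 277 CPM in MnDps at 24 h, 326, 316 and 433 in Dps at 24 h, 388, 449 and 408 in MnDps at 4 h, 394, 334 and 354 in Dps at 4 h, and 303, 459 and 385 CPM in the controls. The pair of libraries of MnDps at 24 h lay below all 12 others. Hsp90aa1 fell in MnDps at 24 h relative to MnDps at 4 h (−0.54 ± 0.16, adjusted p = 0.0245), and the difference from control gave −0.42 ± 0.16 (adjusted p = 0.0885). Hsp90aa1, Hspd1 and Hspe1 made 3 of 10 members called with time after MnDps, all lower, beside 21.8% of all tested genes (10.1% higher and 11.7% lower). The fall of Hsp90aa1 with time was lost without any 1 of replicates 2 or 3 of MnDps at 4 h or either replicate of MnDps at 24 h (−0.59 to −0.48), and with the trend on length and GC content removed (−0.44, adjusted p = 0.0882). The difference from control passed without control replicate 1 (−0.57) or replicate 3 of Dps at 24 h (−0.43), and with DESeq2 (adjusted p = 0.0483). With the length and GC trend removed it did not pass (−0.34, adjusted p = 0.231).

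Hspb1, the small heat shock protein that binds unfolded proteins without ATP and steadies actin filaments, showed the largest point estimates of the 10 members against vehicle in all 4 comparisons, and none passed. Its level was 17.8 and 17.7 CPM in MnDps at 24 h, 15.8, 15.4 and 28.1 in Dps at 24 h, 25.2, 12.4 and 34.5 in MnDps at 4 h, 16.9, 12.7 and 25.5 in Dps at 4 h, and 6.59, 17.7 and 10.1 CPM in the controls. The mean was lowest in the controls, but control replicate 2 overlapped with the 4 h groups and with Dps at 24 h, and lay just under both libraries of MnDps at 24 h. MnDps at 4 h against control gave 1.08 ± 0.45 (adjusted p = 0.0764), Dps at 24 h 0.80 ± 0.46 (adjusted p = 0.24), Dps at 4 h 0.67 ± 0.45 (adjusted p = 0.361) and MnDps at 24 h 0.65 ± 0.51 (adjusted p = 0.426). The MnDps value at 4 h passed without replicate 2 of that group (1.39) or control replicate 2 (1.49), and with DESeq2 (adjusted p = 0.0483). With the length and GC trend removed, none passed and Hspb1 gave 0.53 in MnDps at 4 h, 0.42 in Dps at 24 h, 0.70 in Dps at 4 h and 0.31 in MnDps at 24 h. At 24 h other members then had larger values, among them Hspa1a after Dps (0.59) and Hspd1 after MnDps (−0.41).

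Hspe1 and Hspd1, the Hsp10 lid and the Hsp60 chamber of mitochondria, lie head to head on chromosome 1 (Hspe1 at chr1:55088148-55091317 on the plus strand and Hspd1 at chr1:55077833-55088243 on the minus strand) and overlap at their 5′ ends. Hspe1 had 138 and 129 CPM in MnDps at 24 h, 198, 193 and 197 in Dps at 24 h, 168, 216 and 212 in MnDps at 4 h, 120, 124 and 119 in Dps at 4 h, and 128, 163 and 136 CPM in the controls. Dps at 24 h and MnDps at 4 h stood wholly above the controls, and Dps at 4 h wholly below them. Hspe1 rose in MnDps at 4 h (0.48 ± 0.10, adjusted p = 0.00104) and in Dps at 24 h (0.46 ± 0.10, adjusted p = 0.00631) relative to control. It was not called in MnDps at 24 h (−0.10 ± 0.11, adjusted p = 0.59) or Dps at 4 h (−0.24 ± 0.10, adjusted p = 0.119).

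Hspe1 has a short transcript of 964 bases, shorter than all but 4.47% of tested genes, and the median of the 717 tested genes of the shortest length class was 0.42 in MnDps at 4 h and 0.36 in Dps at 24 h. With the trend on length and GC content removed, Hspe1 gave 0.03 (adjusted p = 0.826) in MnDps at 4 h and 0.20 (adjusted p = 0.154) in Dps at 24 h against control. Dps at 4 h then passed at −0.25 for Hspe1 (adjusted p = 0.0432) and −0.24 for Hspd1 (adjusted p = 0.0351), though most of its length trend remained (rho 0.13). MnDps at 4 h exceeded Dps at 4 h by 0.72 ± 0.10 (adjusted p = 8.37e-05), and by 0.28 (adjusted p = 0.0264) with the trend removed. Dps at 24 h exceeded Dps at 4 h by 0.70 ± 0.10 (adjusted p = 5.63e-05), and by 0.45 (adjusted p = 0.000781) with the trend removed.

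**Figure D3:**
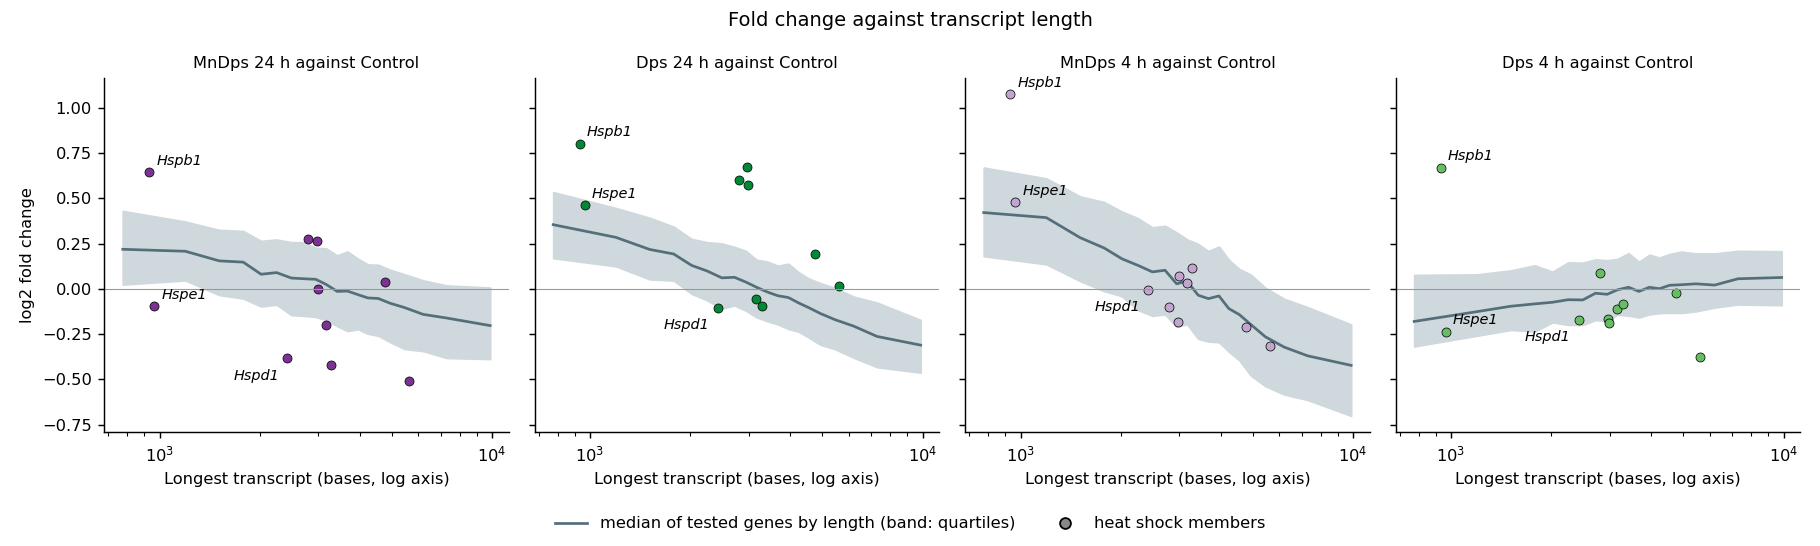
Log2 fold change against control (vertical axis) by length of the longest transcript in bases (horizontal log axis) in panels for both 24 h groups and then both 4 h groups, MnDps left of Dps; the line is the median of tested genes in 20 length classes, the band their quartiles, and points the 10 members. Short genes lie above 0 in all but Dps at 4 h, and Hspe1 stands near that line in MnDps at 4 h (0.48 beside 0.42) and Dps at 24 h (0.46 beside 0.36) and below it in MnDps at 24 h (−0.10 beside 0.22).

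After MnDps, Hspe1 went the other way with time. MnDps at 24 h was below MnDps at 4 h (−0.58 ± 0.11, adjusted p = 0.0018) and below Dps at 24 h (−0.56 ± 0.11, adjusted p = 0.0301; 0.815% of all tested genes were called between the materials at 24 h, 0.148% higher and 0.666% lower). Both calls were lost with the trend removed (−0.25, adjusted p = 0.0863, and −0.42, adjusted p = 0.0531). The difference at 24 h was also lost without any 1 of these 5 libraries, or without replicate 3 of Dps at 4 h (−0.61 to −0.51). The test of the interaction, the change with time after MnDps minus that after Dps, gave −1.28 ± 0.15 (adjusted p = 0.000286), and −0.70 (adjusted p = 0.00242) with the trend removed. Hspe1 and Hspd1 were 2 of 10 members called in this test, both lower, beside 29.4% of all tested genes (13.7% higher and 15.7% lower).

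Hspd1 had 590 and 639 CPM in MnDps at 24 h, 768, 717 and 753 in Dps at 24 h, 775, 884 and 737 in MnDps at 4 h, 779, 695 and 662 in Dps at 4 h, and 800, 844 and 762 CPM in the controls. The libraries of MnDps at 24 h were the lowest of all 14. Hspd1 fell in MnDps at 24 h relative to control (−0.38 ± 0.09, adjusted p = 0.0168), and by −0.41 (adjusted p = 0.011) with the length and GC trend removed. The call was lost without replicate 1 (−0.33) or 2 (−0.44) of MnDps at 24 h, where the lone library left is assumed to vary like the other groups. Relative to MnDps at 4 h the change was −0.38 ± 0.09 (adjusted p = 0.00981), which did not pass without replicate 1 of MnDps at 24 h (−0.33), with only these groups in the fit (adjusted p = 0.0723) or with the trend removed (−0.25, adjusted p = 0.052). Unlike Hspe1, Hspd1 was not called in MnDps at 4 h (−0.01 ± 0.08) or Dps at 24 h (−0.10 ± 0.08) against control; the difference between the genes was not tested.

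The materials were compared directly at the matched dose and time. At 4 h, 1 of 10 members passed (Hspe1, higher after MnDps), beside 41.5% of all tested genes (20.8% higher and 20.7% lower), and at 24 h 1 of 10 (Hspe1, lower after MnDps), beside 0.815%. The call at 24 h is the one lost under the settings given above. For the members that did not pass, the 95% intervals of the MnDps over Dps ratio at 4 h were narrow for Hspd1 (0.992 to 1.27), Dnaja1 (0.821 to 1.32) and Hsp90aa1 (0.937 to 1.41). They were wide for Hspa1b (0.347 to 2.22), Hspa1a (0.469 to 2.08) and Hspb1 (0.677 to 2.59). At 24 h the intervals of Hspd1 (0.718 to 0.946), Dnaja1 (0.531 to 0.912) and Dnajb1 (0.454 to 0.987) lay below 1 before adjustment, and that of Hspa1b ran from 0.282 to 2.25.

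Most members varied more between libraries of the same group than other genes did. The pooled SD of log2 level between libraries of a group was 0.742 for Hspa1b, 0.596 for Hspa1a, 0.556 for Hspb1, 0.476 for Hsph1, 0.369 for Hspa8 and 0.311 for Dnajb1, while the median of all tested genes was 0.141. Among the 1000 genes closest in level, between 98.7% and 100% had a smaller SD than these 6 members. Dnaja1 (0.231) and Hsp90aa1 (0.200) exceeded 94.6% and 92.2% of such genes. Hspe1 (0.131) and Hspd1 (0.099) exceeded 68.0% and 43.0%, so the mitochondrial pair did not share the wide spread.

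**Figure D4:**
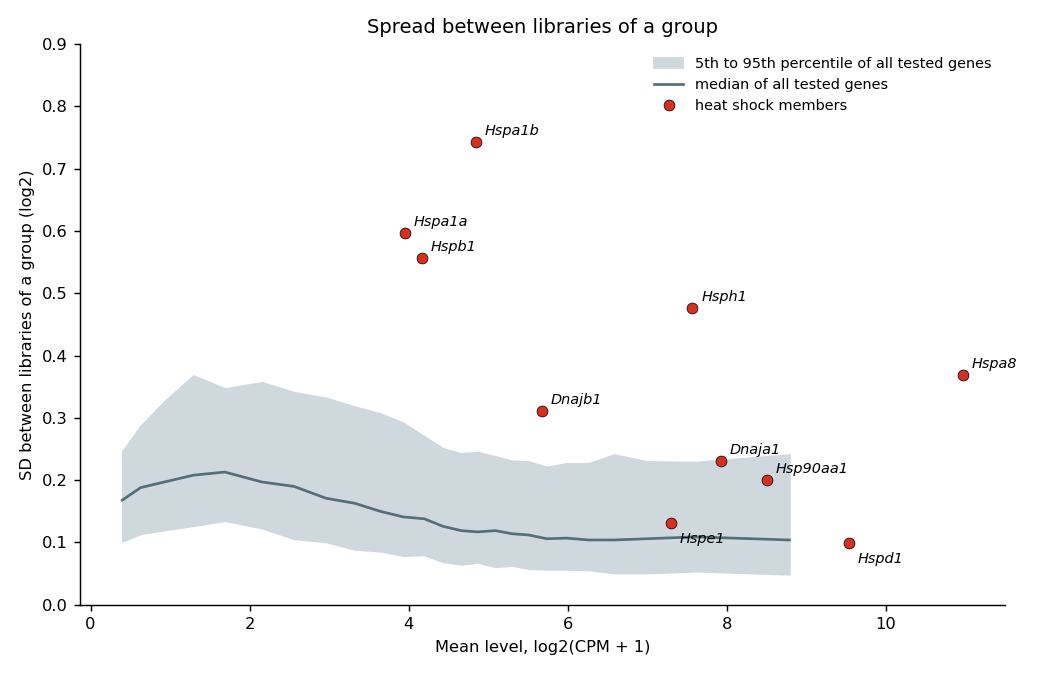
SD of log2 level between libraries of a group (vertical axis) by mean level as log2(CPM + 1) (horizontal axis); the line and band are the median and the 5th to 95th percentile of all tested genes in 25 level classes, and red points the 10 members. Hspa1b (0.742), Hspa1a (0.596), Hspb1 (0.556), Hsph1 (0.476) and Dnajb1 (0.311) lie above the band and Hspe1 (0.131) near the line, while Hspa8 (0.369) and Hspd1 (0.099) lie right of the median level of the highest class, where the band ends.

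The spread followed libraries. Control replicate 1 was the lowest of the controls for 9 of 10 members, Hspd1 being the exception, and control replicate 2 the highest for 8. Replicate 3 of Dps at 24 h was the highest of its group for 8 members, and replicate 2 of Dps at 4 h the lowest of its group for 8. Markers of the urinary lining differed between the controls as well, with a summed level of 10.4 CPM in replicate 1, 31.4 in replicate 2 and 14.6 in replicate 3 (5 genes, all detected in the series). In replicates 1, 2 and 3 of Dps at 4 h these sums were 23.9, 13.9 and 26.4 CPM. They were 25.6, 16.8 and 25.4 CPM in MnDps at 4 h, and 28.3 and 34.3 in MnDps at 24 h. In these groups and in the controls the sums ranked the libraries as Hspa1b did. In Dps at 24 h they were 37.1, 31.2 and 29.8 CPM, with the lowest in the library where Hspa1b was highest. The urinary lining list is only 1 of several marker lists looked at, and its ranks come from groups of 2 or 3 libraries. Other lists differed between control replicates 1, 2 and 3 too. Adipocyte markers summed to 51.4, 82.5 and 44.6 CPM there. Genes of the osmotic response summed to 832, 618 and 876 CPM, lowest in the control where Hspa1b was highest. Collecting duct and inner medulla markers (6 genes) summed to 738 to 837 CPM in MnDps at 24 h, 703 to 847 in Dps at 24 h, 523 to 667 in MnDps at 4 h, 368 to 452 in Dps at 4 h and 390 to 530 CPM in the controls. The part of any of these lists in the members' levels was not tested. By total counts, control replicate 1 (18004289) was close to control replicate 2 (17589774), and control replicate 3 had 37135858. The part of depth in the members' levels was not tested.

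Genes known to work with the members were taken from 9 lists of other chaperones, cochaperones and heat shock factors, with 95 of 98 listed genes tested. In MnDps at 4 h, 28 were higher and 10 lower than control (40% of those tested, beside 45.6% of all genes), and in Dps at 4 h 1 was higher and 2 lower (3.16%, beside 14.6%). In Dps at 24 h 15 were higher and 7 lower (23.2%, beside 20.1%), and in MnDps at 24 h 1 was higher and 10 lower (11.6%, beside 13.3%). The shares at 24 h are near those of all genes. With the length and GC trend removed the counts became 14 higher and 11 lower in MnDps at 4 h, 1 and 27 in Dps at 4 h, 6 and 4 in Dps at 24 h, and 1 and 7 in MnDps at 24 h. In Dps at 4 h most of the length trend remained after the correction (rho 0.13), so its count is not free of that trend. Of 5 tested genes of heat shock factors and their regulators, none was called in the 4 comparisons with control by edgeR. At an unadjusted p under 0.05 there was 1 in each but MnDps at 24 h, which had 0. With the length and GC trend removed, 1 was lower in each 4 h group and 1 higher in MnDps at 24 h. Between treated groups, Hsbp1, whose product binds heat shock factor 1, was higher in MnDps at 4 h than in Dps at 4 h (0.38 ± 0.08), as was Hsbp1l1 (0.63 ± 0.17). Hsbp1 was also higher in Dps at 24 h than in Dps at 4 h (0.38 ± 0.08). Once the length and GC trend was removed, 0 of these 5 genes were called between the materials at 4 h. From Dps at 4 h to Dps at 24 h, 1 of the 5 was then higher. Hsf1, the main activator, averaged 34.2 ± 0.353 CPM in MnDps at 24 h, 36.1 ± 2.15 in Dps at 24 h, 32.9 ± 2.15 in MnDps at 4 h and 35.1 ± 0.851 in Dps at 4 h, against 32.2 ± 5.34 CPM in the controls. Its adjusted p against control lay between 0.271 and 0.847, and that of Hsf2 between 0.135 and 0.788.

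The TRiC chaperonin, which folds actin and tubulin, and prefoldin, which hands them over, made up the list with the most calls in MnDps at 4 h. Of 14 genes, 8 were higher than control, beside 22.9% of all tested genes. The median log2 fold change of the 14 was 0.29, and Pfdn5 (0.54 ± 0.11) and Cct5 (0.52 ± 0.08) were among those higher. Of the same genes 11 were higher than in Dps at 4 h (median 0.38), beside 20.8% of all tested genes. They were led by Pfdn5 (0.80 ± 0.11) and Pfdn4 (0.79 ± 0.12). With the length and GC trend removed these counts were 5 higher and 2 lower against control (median −0.01) and 8 higher against Dps (median 0.23). In Dps at 24 h 5 of the 14 were higher than control (median 0.20), beside 9.64% of all tested genes. Among them were Pfdn5 at 0.47 ± 0.11 and Pfdn6 at 0.46 ± 0.11. With the trend removed 2 were higher (median 0.05). In MnDps at 24 h only Vbp1, a prefoldin subunit, was called, and it was lower (−0.52 ± 0.12). With the trend removed, 2 of the list were lower.

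Partners of Hsp70 showed a few changes of moderate size. Beside the counts below, 22.9% of all tested genes were higher and 22.7% lower than control in MnDps at 4 h. These shares were 9.64% and 10.4% in Dps at 24 h, and 8.33% and 6.27% in Dps at 4 h. In MnDps at 24 h they were 4.93% and 8.39%. Bag1, a nucleotide exchange factor, rose in MnDps at 4 h (0.54 ± 0.11) and Dps at 24 h (0.36 ± 0.11) relative to control and was one of 4 and 3 higher genes among 9, with 1 lower in each. With the length and GC trend removed this list had 1 higher and 0 lower in MnDps at 4 h, and 0 higher and 1 lower in Dps at 24 h. Bag3, a partner of Hsp70 and small heat shock proteins, rose in Dps at 24 h (0.45 ± 0.15, adjusted p = 0.0474). Among 7 other small heat shock proteins, Hspb8, which works with Bag3, rose in both 4 h groups (0.78 ± 0.17 after MnDps and 0.55 ± 0.17 after Dps). Hspb11 rose in MnDps at 4 h (0.63 ± 0.14) and Hspb2 in MnDps at 24 h (1.04 ± 0.31). Once the length and GC trend was removed, these 7 had 1 higher and 3 lower in MnDps at 4 h. They then had 1 higher and 1 lower in Dps at 4 h, and 0 higher and 0 lower in MnDps at 24 h. Among 14 other J domain proteins, 4 were higher in MnDps at 4 h, for example Dnajb2 (0.40 ± 0.12) and Dnajc7 (0.36 ± 0.09). In the same comparison 3 were lower, and both counts are near the shares of all genes. Removing the length and GC trend gave 2 higher and 2 lower. The clathrin-uncoating gene Dnajc6 fell in MnDps at 4 h (−1.18 ± 0.13), Dps at 4 h (−0.50 ± 0.13) and Dps at 24 h (−0.44 ± 0.13). This list had 0 higher and 1 lower in Dps at 4 h, and 0 higher and 3 lower in Dps at 24 h. After the length and GC correction it had 0 higher and 5 lower in Dps at 4 h, and 0 higher and 1 lower in Dps at 24 h.

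Genes of Hsp90 and its cochaperones rose in 4 of 14 cases in MnDps at 4 h, and in 3 with the length and GC trend removed. Of all tested genes, 22.9% were higher and 22.7% lower than control in MnDps at 4 h. The 4 were led by Fkbp5 (0.65 ± 0.23), an immunophilin of steroid receptor complexes, and the kinase cochaperone Cdc37 (0.41 ± 0.11). In MnDps at 24 h 2 of 14 fell, beside 8.39% of all tested genes. These were Cacybp (−0.50 ± 0.15) and Ptges3, the p23 cochaperone (−0.48 ± 0.10). Ptges3 was also lower than in Dps at 24 h (−0.63 ± 0.10, adjusted p = 0.0126). Mitochondrial folding and protease partners had 5 higher and 1 lower of 9 in MnDps at 4 h, with the protease subunit Clpp at 0.46 ± 0.12. Removing the length and GC trend gave 1 higher and 0 lower. In MnDps at 24 h its partner Clpx (−0.70 ± 0.11) and the protease Yme1l1 (−0.72 ± 0.12) fell, the comparison in which Hspd1 fell. Clpx also fell in Dps at 24 h (−0.56 ± 0.10). Endoplasmic reticulum chaperones rose in 5 of 15 cases in Dps at 24 h, beside 9.64% of all tested genes. Among the 5 were Sdf2l1 at 0.98 ± 0.20 and the calcium-binding Calr at 0.42 ± 0.09. None rose in MnDps at 4 h, where 3 fell, for example Pdia4 (−0.35 ± 0.11). With the trend removed 3 rose in Dps at 24 h and 2 fell in MnDps at 4 h. Of 8 other Hsp70 and Hsp110 genes, Hspa12a fell in MnDps at 4 h (−0.67 ± 0.13) and Dps at 24 h (−0.44 ± 0.13). Hspa13 also fell in MnDps at 4 h (−0.44 ± 0.14), and Hspa14 rose there (0.29 ± 0.08). Once the length and GC trend was removed, 1 of the 8 was higher and 1 lower in MnDps at 4 h. In Dps at 24 h 0 were then called.

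Across the 14 libraries, the genes outside the 10 whose levels were most like the mean of the members were Ahsa1 (Pearson's r 0.90), Serpinh1 (0.88), P4ha2 (0.88), Stip1 (0.87) and Bag3 (0.86). For Hspa1b alone they were Fam171a2 (0.91), Gata3 (0.89), Mybl2 (0.86), Gata2 (0.84) and Gm20605 (0.83), and for Hspe1 alone Uqcrfs1 (0.97), Higd1a (0.97), Ndufa4 (0.96), Vdac3 (0.96) and Ptges2 (0.96). These r values are descriptions over libraries that fall into the same 5 groups and share each library's depth and length trend.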

How the data were processed

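Values in the deposited table are unnormalized read counts, whole numbers for each gene symbol and library. Per the submitters' processing notes the authors aligned reads with STAR and counted them with featureCounts on mm10. Per the labels' protocols, libraries were stranded, poly(A)-selected and sequenced as paired reads. The sources used here give no tool versions, annotation, strand setting or handling of multiple matches. Libraries were grouped by their titles, and replicates were numbered in accession order.

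edgeR's filterByExpr kept 14854 of 24421 genes. Counts were scaled by the trimmed mean of M-values and tested with edgeR 4.0.16 (R 4.3.3), quasi-likelihood F-test with robust dispersion, in 1 fit of 5 group means over 14 libraries (9 residual degrees of freedom), with Benjamini-Hochberg adjustment in each of 9 comparisons. SE is the fold change divided by the square root of F. Alternatives were size factors by the median of ratios, testing without a filter or with a stricter one (1 CPM in 3 libraries), DESeq2 1.42.0, limma 3.58.1 voom with library weights, only the groups compared, a term for libraries above 30000000 counts, spline trends on transcript length and GC content as an offset (GENCODE M21, known for 96.5% of tested genes), summed Hspa1a and Hspa1b counts, and leaving out each library. The tests were checked on simulated counts. Members and lists were chosen with earlier results of these data known. From the lists, Hsf1, Hsf2 and up to 2 rises and 2 falls per list and comparison could be named. The 5 genes most like the members were ranked on log2(CPM + 1).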

Additional observations from a re-analysis of the deposited data

Results flagged for a closer look

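The change with time differed between the materials for 2 members. For Hspe1, the change from 4 h to 24 h after MnDps minus that after Dps was −1.28 ± 0.15 (adjusted p = 0.000286), with levels of 133 ± 6.28 CPM in MnDps at 24 h (n = 2) and 199 ± 26.7 CPM in MnDps at 4 h, and 196 ± 2.88 CPM in Dps at 24 h and 121 ± 2.56 CPM in Dps at 4 h (n = 3 each). For Hspd1 it was −0.44 ± 0.13 (adjusted p = 0.0145), with 615 ± 34.6 CPM in MnDps at 24 h and 799 ± 76.4 CPM in MnDps at 4 h, and 746 ± 26.0 CPM in Dps at 24 h and 712 ± 60.2 CPM in Dps at 4 h. With the trend on length and GC content removed, Hspe1 passed at −0.70 (adjusted p = 0.00242) and Hspd1 did not at −0.35 (adjusted p = 0.0558). The Hspd1 call was also lost without replicate 1 of MnDps at 24 h (−0.39). Beside these counts of 2 of 10 members, 29.4% of all tested genes were called in this comparison. Single outlying libraries were not tested for in these groups of 2 or 3.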

How the results depend on the processing

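With the trend on transcript length and GC content removed, the members called against control numbered 2 in Dps at 4 h, 0 in MnDps at 4 h and 0 in Dps at 24 h, those between the materials at 24 h 0, those with time after MnDps 0, and those of the interaction 1. In Dps at 4 h against control most of the length trend remained (rho 0.13). DESeq2 called 2 in MnDps at 4 h, 2 in Dps at 24 h and 3 in MnDps at 24 h against control, and 5 in the interaction, as did the fit of only the groups compared (5). limma voom called 2 between the materials at 4 h. Leaving out 1 library at a time gave 0 to 1 called in Dps at 4 h, 1 to 2 in MnDps at 4 h, 1 to 2 in Dps at 24 h and 0 to 3 in MnDps at 24 h against control. It gave 1 to 1 between the materials at 4 h, 0 to 1 at 24 h, 1 to 3 with time after Dps, 1 to 3 with time after MnDps and 1 to 5 in the interaction. For single members, 1832 of the alternative values kept their direction and side of the threshold, 35 newly passed, 26 no longer passed, and 105 changed sign with neither value past the threshold. No called value changed sign. The causes were not tested.

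All genes called numbered 2168 in Dps at 4 h against control (3795 with the length and GC trend removed), 2979 in Dps at 24 h (1494, and 1637 with a term for deep libraries) and 1978 in MnDps at 24 h (1187 and 1033). Between the materials, 6158 at 4 h became 3678 and 3558, and 121 at 24 h became 558 with DESeq2, 716 with voom, 720 with only those groups and 68 with the deep-library term. With time, 6626 after Dps became 4225 with that term and 3242 after MnDps became 1880 with only those groups, and the interaction's 4368 became 2352 with the trend removed. Leaving out 1 library at a time, all genes called ranged against control from 1441 to 2679 in Dps at 4 h, 5005 to 6763 in MnDps at 4 h. They ranged from 884 (without control replicate 3) to 3856 in Dps at 24 h and 309 (without replicate 1 of MnDps at 24 h) to 2820 in MnDps at 24 h. They ranged from 4658 to 6270 between the materials at 4 h and, at 24 h, from 5 (without replicate 1 of MnDps at 24 h) to 595 (without replicate 3 of MnDps at 4 h). With time they ranged from 5191 to 7104 after Dps and 1350 to 3367 after MnDps, and for the interaction from 2740 to 4565. The shares of all genes given beside the members thus move with single libraries. No paired analysis was possible because the labels give no replicate numbers. With 2 or 3 libraries a group, the wide spread of Hspa1a, Hspa1b and Hspb1 limits what could be detected.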
